A study of Homo sapiens with 19 samples.

Results

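LTR2B sgRNA 3 is 1 of 4 guide RNAs that were delivered together to steer a silencing protein to LTR2B elements, a family of long terminal repeats (LTRs) left in the human genome by an endogenous retrovirus. Its genomic sites were taken as every 23-base stretch of chromosomes 1 to 22, X and Y of hg38, on either strand, that matched the 20-base guide with at most 3 mismatches and was followed by NGG, the motif that Cas9 needs next to its target (the PAM). There were 599 such sites among the 2379 found in the same way for all 4 sgRNAs. Of the 599 sites, 80 matched the guide perfectly, 99 had 1 mismatch, 217 had 2 and 203 had 3. They lay on the plus strand at 285 places and on the minus strand at 314, and joining any that were at most 600 bp apart left 597 loci.

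The sites were read against 5 ChIP-seq peak lists of 1 library each. The dCas9 list came from K562 cells, a chronic myeloid leukaemia line, transduced with a lentivirus for dCas9-KRAB-mCherry and then with a pool of 4 lentiviruses that each carried 1 LTR2B sgRNA and BFP, and sorted for both fluorescent proteins. H3K27ac was mapped in HL-60 and Molm13, acute myeloid leukaemia (AML) lines that received no vector, and in OCI-AML3 (also AML) and K562 cells that carried dCas9-KRAB and an empty sgRNA vector. The series has 19 samples, and the 14 without a peak list, including the dCas9 library of empty-vector K562 cells, the inputs and the H3K27ac and H3K9me3 libraries of cells with LTR2B sgRNAs, were not analysed here. Because the 4 sgRNAs were pooled, a peak over an sgRNA 3 site can hold dCas9 brought by any of them. The cell lines carried H3K27ac where their lineage genes start. In K562 the mark lay within 500 bp of a start site of the erythroid genes GATA1 and HBG1 and not of the granulocyte genes MPO and CEBPE, and the other 3 lines showed the reverse, while the myeloid factor gene SPI1 was marked in all 4 lines.

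dCas9 is a Cas9 protein that finds DNA through its guide but cannot cut it. It first reads the PAM and then pairs the guide with the DNA outwards from the PAM, so mismatches next to the PAM (the seed) are known to disturb binding more than those at the far end. The KRAB domain recruits co-repressors that lead to H3K9me3 and loss of H3K27ac, which is found at enhancers and promoters in use. A guide against a repeat family meets many related genomic copies that differ from it by a few bases, and short reads from identical copies cannot be placed uniquely.

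The guides are shown first because the results turn on how the genomic sites differ from sgRNA 3. Capitals mark positions 6, 7, 12 and 13 of sgRNA 3, counted from 1 at its 5′ end, where the genomic sites differed from it most often.
LTR2B sgRNA 3: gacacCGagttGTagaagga
LTR2B sgRNA 4: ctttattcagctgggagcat
LTR2B sgRNA 2: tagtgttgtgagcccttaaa
LTR2B sgRNA 1: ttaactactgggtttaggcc

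The sites of the 4 sgRNAs had a fixed order. Measured between centres along the strand of sgRNA 3, the sgRNA 4 site lay 24 bp downstream on the same strand, the sgRNA 2 site 95 bp downstream on the opposite strand, and the sgRNA 1 site 292 bp downstream on the same strand. Among the 179 sgRNA 3 sites with at most 1 mismatch, 120 had an sgRNA 4 site within 600 bp, 143 an sgRNA 2 site and 139 an sgRNA 1 site. Of the resulting pairs, 120 of 122 for sgRNA 4, 142 of 143 for sgRNA 2 and 127 of 139 for sgRNA 1 lay within 5 bp of these distances. The order was kept at the 420 sites with 2 or 3 mismatches, but the company differed, with sgRNA 2 near 342 of them, sgRNA 4 near 146 and sgRNA 1 near 44.

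dCas9 occupied nearly all perfect sites of sgRNA 3 and few of those with 2 or more mismatches. A site was called occupied when it overlapped a dCas9 peak by at least 1 bp. The peak list held 393 peaks on these chromosomes, and only 0.00530% of all 303665328 NGG windows of the genome overlapped 1 of them. Of the sites of the other 3 sgRNAs, 27.1% did. Of the 599 sgRNA 3 sites, 172 were occupied (28.7%), each in a peak of its own. The share fell with each mismatch, from 73 of 80 perfect sites (91.2%, Wilson 95% interval 83.0 to 95.7%) to 66 of 99 sites with 1 mismatch (66.7%, 56.9 to 75.2%), 26 of 217 with 2 (12%, 8.31 to 17.0%) and 7 of 203 with 3 (3.45%, 1.68 to 6.95%). Perfect sites exceeded 1-mismatch sites by 24.6 percentage points (Newcombe 95% interval 12.7 to 35.3), an interval that leaves out 0. With a summit within 100 bp of the site's centre as the criterion, the 3-mismatch count was 13 of 203 (6.40%). Intervals here cover counting over sites in 1 library, and sites are not replicates of a condition. In all, 14 such differences of shares were computed, and further ones under alternative settings, all without adjustment.

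Peak strength followed the same order. The peaks' fold enrichment over the caller's local background had a median of 14.1 at the 73 occupied perfect sites (range 5.65 to 26.3), 10.1 at the 66 with 1 mismatch (3.94 to 20.7), 8.26 at the 26 with 2 (3.57 to 20.1) and 6.87 at the 7 with 3 (4.35 to 11.9). The ranges overlapped widely, and no test was made between them. Of the 5 strongest perfect sites, 4 are named here. Below the highest fold of 26.3, they reached 23.6 at chr14:102056430-102056452 in an exon of DYNC1H1, which encodes the heavy chain of cytoplasmic dynein, and 23.3 at the chromosome 8 site starting at 106087063, in no annotated gene. Next came 21.4 at chr1:1412286-1412308, 3201 bp from the start of MRPL20-DT, and 21 at chr6:154129045-154129067, in an exon of OPRM1, the gene of the mu opioid receptor, and the perfect site at chr10:97561359-97561381 tied with the latter. None of the 5 or the tied site lay in an H3K27ac peak of any of the 4 lines, and each had a perfect site of sgRNA 2 nearby. The weakest occupied perfect site, at 5.65, was chr20:15985800-15985822 in an exon of MACROD2, 23 bp from one of its transcript starts.

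The 7 perfect sites outside peaks were mostly in sequence that occurs more than once in the genome. For every site, the share of 75-base words within 100 bp of its centre that occur only once in the genome was computed, since the study kept uniquely mapped reads. Of the 72 perfect sites where at least 50% of words were unique, 71 were occupied (98.6%, 92.5 to 99.8%), against 2 of the 8 below that (25%, 7.15 to 59.1%), a difference of 73.6 points (39.0 to 91.5). The 3 sites with no unique word lay beside the salivary amylase genes, at chr1:103655109-103655131 (640 bp from a start of AMY1A), chr1:103696839-103696861 (396 bp from AMY1B) and chr1:103749247-103749269 (in an intron of AMY1C, 396 bp from a start). The pair at chr15:30501561-30501583 and chr15:32506137-32506159, 5805 bp from MPHOSPH10P3 and 5802 bp from MPHOSPH10P2, had 0.787% unique words, and chr2:90149173-90149195, 4889 bp from the immunoglobulin segment IGKV1D-13, had 40.2%. A perfect site with the same 40.2% and equally matched neighbours, chr2:89051370-89051392 near IGKV1-13, was occupied at a fold of 7.98. How much the unplaced reads account for these 6 absences was not tested. The seventh, chrY:10091797-10091819, had 100% unique words.

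Chromosome Y held 14 sgRNA 3 sites, 6 of them with at most 1 mismatch, and 0 of the 14 were occupied (upper Wilson limit 21.5%), while the whole dCas9 list held 1 peak on that chromosome. Whether the K562 cells used here carry chromosome Y was not tested, so these 14 sites cannot be read as present and unbound. Without chromosome Y, 73 of 79 perfect sites and 66 of 94 with 1 mismatch were occupied. Of those with at least 50% unique words, all 71 perfect sites (lower Wilson limit 94.9%) and 65 of 86 with 1 mismatch were occupied. The split by unique words was also seen at 1-mismatch sites, chromosome Y included. There 65 of 90 with at least 50% unique words were occupied and 1 of 9 below (difference 61.1 points, 27.2 to 73.4). That 1 occupied site had no unique word, and neither did 1 of the occupied sites with 2 mismatches. A lack of unique words by this measure thus did not preclude a called peak. Among sites with 2 and 3 mismatches, only 4 and 3 fell below 50%. The fall in occupancy from 0 to 3 mismatches was thus also seen in unique sequence, from 98.6% to 72.2%, 11.7% and 3.50%, and the difference between perfect and 1-mismatch sites there was 26.4 points (16.2 to 36.5).

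Most sgRNA 3 sites had company, which bears on whose dCas9 a peak shows. All 80 perfect sites, 93 of 99 with 1 mismatch, and all but 61 of the 599 sites had a site of another sgRNA within 600 bp. At 1, 2 and 3 mismatches the occupied share rose with the number of other sgRNAs nearby. At 1-mismatch sites it was 1 of 6 with none, 3 of 11 with 1, 26 of 37 with 2 and 36 of 45 with all 3. At 2-mismatch sites it was 0 of 27, 5 of 110, 7 of 56 and 14 of 24, and at 3-mismatch sites 0 of 28, 1 of 116, 5 of 55 and 1 of 4. Perfect sites were occupied at 11 of 12 with 1 other sgRNA, 28 of 34 with 2 and 34 of 34 with 3. For 1-mismatch sites, sites with any other sgRNA near exceeded those without by 53.2 points (12.3 to 69.3), with only 6 sites on the side without one. Of those 6, 3 lay in the amylase cluster with no unique word, and in unique sequence the difference of 40.2 points no longer left out 0 (-6.77 to 68.6).

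Occupancy also differed by how well the neighbouring guide matched. With another sgRNA at 0 mismatches within 600 bp, the sgRNA 3 site was occupied at 57 of 61 perfect sites, 58 of 74 with 1 mismatch, 21 of 33 with 2 and 5 of 7 with 3. Without such a neighbour the counts were 16 of 19, 8 of 25, 5 of 184 and 2 of 196. In the absence of another perfectly matched sgRNA, occupancy was thus 84.2% at perfect sgRNA 3 sites (62.4 to 94.5%), 32.0% with 1 mismatch (17.2 to 51.6%), and 1.84% with 2 or 3 (7 of 380, 0.895 to 3.75%). The gap between perfect and 1-mismatch sites was 52.2 points there (22.9 to 70.2), against 24.6 over all sites, a split chosen after the values were seen. At perfect sites a perfectly matched neighbour went with a difference of 9.23 points, whose interval (-4.51 to 31.4) includes 0, and among perfect sites in unique sequence 16 of 16 without such a neighbour were occupied. At 1-mismatch sites it went with 46.4 points (24.1 to 63.1).

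The 16 occupied perfect sites without a perfectly matched neighbour are those where sgRNA 3 was the best matched guide. Their fold enrichments ran from 8.50 to 20 with a median of 13.6, close to the 14.1 at the 57 with such a neighbour. At 5 of them the only other guide site was that of sgRNA 2 with 3 mismatches, and no perfect site in such company was outside a peak. These were chr4:190016293-190016315 (fold 17.6), chr6:166989326-166989348 (18.1), chr9:41236399-41236421 (10.5), chr9:62801250-62801272 (10.7) and chr9:63814350-63814372 (11.2). The 3 on chromosome 9 each had 92.1% unique words, and the latter 2 lay 52 bp and 202 bp from the start of a long non-coding RNA. The strongest of the 16 were chr12:110050058-110050080 near C12orf76 and chr3:125597158-125597180 near OSBPL11, an oxysterol-binding protein gene, both at 20.

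The peak summit, the base with the highest signal in a peak, lay close to the sgRNA 3 site where no other guide matched perfectly and sgRNA 3 had at most 1 mismatch. At the 16 occupied perfect sites without a perfectly matched neighbour, the summit fell 10 bp from the middle of the sgRNA 3 site in the median, and the sgRNA 3 site was the nearest guide site of the 4 at 15 of 16. At the 8 occupied 1-mismatch sites of that kind it was the nearest at 7. At the 7 occupied sites with 2 or 3 mismatches of that kind it was the nearest at 0, and the summits lay 44 to 93 bp downstream, towards the positions of sgRNA 4 and sgRNA 2. Where another sgRNA matched perfectly, sgRNA 3 was nearest to the summit at 28 of 57 perfect sites, 10 of 58 with 1 mismatch and 3 of 26 with 2 or 3. With all 3 other guides near a perfect site the median summit moved to 38.5 bp downstream, and sgRNA 3 was the nearest at 10 of 34. The sgRNA 4 site is only 24 bp away, so nearest is a coarse measure, and these shares were not tested.

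Single mismatches of sgRNA 3 fell mostly on its CG dinucleotide. The 99 single-mismatch sites carried 27 different substitutions at 15 of the 20 positions, and 50 of the 99 were C6T or G7A (the guide's base, its position, the site's base), which turn the CG at positions 6 and 7 into TG or CA. These are the changes that deamination of a methylated CpG leaves on either strand. Over all mismatch counts, 214 of the 599 sites had C6T or G7A and 356 kept the CG. The commonest substitutions, C6T and G7A, each occurred alone at 25 sites and are shown with the changed base in capitals.
C6T: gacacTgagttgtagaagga
G7A: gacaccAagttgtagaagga

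Sites with G7A were occupied at 21 of 25, with a median fold of 11.2 (5.94 to 15.5), and sites with C6T at 15 of 25, with a median fold of 8.41 (5.13 to 20.7). The difference of 24.0 points had an interval of -0.968 to 45.5, which includes 0. The 2 changes of the CG separated where no other sgRNA matched perfectly. There G7A sites were occupied at 5 of 6 and C6T sites at 1 of 8, a difference of 70.8 points (18.2 to 87.9). The comparison was chosen after the values were seen, and 3 of the 8 C6T sites lay in the amylase cluster with no unique word. In unique sequence the counts were 5 of 5 and 1 of 5 (80 points, 19.3 to 96.4).

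The occupied G7A sites of this kind were chr4:131548117-131548139 (fold 9.44), chr9:79008712-79008734 (10.2), chr10:16198818-16198840 (8.83), chr13:45871158-45871180 (5.94) and chrX:75649171-75649193 (13.3). At all 5 the sgRNA 3 site was the guide site nearest to the summit. The first of them, in an intron of the non-coding gene LINC02377, was the only occupied site of the 61 with no site of another sgRNA within 600 bp. Its summit lay 22 bp from the site's centre, and 100% of its words were unique. The other 60 sites without company were outside peaks, and 55 of the 61 had 2 or 3 mismatches. The 1 occupied C6T site, chr1:196217043-196217065 (fold 7.46), had its summit 52 bp downstream, nearest to an sgRNA 4 site with 1 mismatch.

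The position of a single mismatch within the guide went with no difference that these sites could show. Sites with the mismatch at positions 1 to 10, far from the PAM, were occupied at 48 of 74 (64.9%), and those with it at positions 11 to 20, next to the PAM, at 18 of 25 (72.0%). The difference of -7.14 points had an interval of -24.9 to 14.8. It turned positive, 7.86 points (-14.9 to 33.7), when only the last 8 positions were counted as next to the PAM. Of the 25 sites next to the PAM, 22 had a perfectly matched neighbour. Of the 3 without one, 0 were occupied (T13A at chr3:134020280-134020302 and chr7:154250245-154250267, and G19A at chr4:189719021-189719043), against 8 of 22 for mismatches far from the PAM (36.4 points, -22.2 to 57.0). With 3 sites, no effect of position could be told from none.

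Sites with 2 and 3 mismatches were dominated by the joint change G12A with T13A, in the PAM-proximal part of the guide. It was present at 170 of the 217 sites with 2 mismatches and at 186 of the 203 with 3, and at 126 of those 186 the third mismatch was C6T or G7A. The 3 commonest forms are shown with changed bases in capitals.
G12A,T13A: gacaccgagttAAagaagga
G7A,G12A,T13A: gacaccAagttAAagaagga
C6T,G12A,T13A: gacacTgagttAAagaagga

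The first of these occurred at 170 sites, the second at 66 and the third at 60. dCas9 was rarely over them. Of the 356 sites with G12A and T13A, 9 were occupied (2.53%, 1.34 to 4.73%), and at 0 of the 9 was sgRNA 3 the guide site nearest to the summit. The 170 2-mismatch sites with this change were occupied at 5 (2.94%) and the 47 with other pairs of mismatches at 21 (44.7%), a difference of 41.7 points (27.9 to 55.9) that was chosen after the values were seen. Counting instead sites with a summit within 100 bp, whether or not the peak reached them, gave 13 of 170 and 20 of 47 (34.9 points, 20.9 to 49.4). The same split follows the neighbours. None of the 170 had another sgRNA at 0 mismatches within 600 bp, all 21 occupied sites of the other kind did, and of the 14 without such a neighbour 0 were occupied (upper Wilson limit 21.5%). Among 2-mismatch sites without a perfectly matched neighbour the counts were thus 5 of 170 with G12A and T13A and 0 of 14 without, and the gap seen over all 2-mismatch sites was not present. Among 3-mismatch sites with such a neighbour they were 2 of 2 and 3 of 5. Over all 2-mismatch sites, the parts of sgRNA 3 and of its neighbours in this difference cannot be told apart.

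In all, 33 sites with 2 or 3 mismatches lay in dCas9 peaks. Of these, 26 had another sgRNA at 0 mismatches nearby, 6 had 1 at best at 1 mismatch and 1 at 2 mismatches. The 7 without a perfect neighbour all carried G12A and T13A, and at 5 of the 7 the only other guide near was sgRNA 2. Those with 2 mismatches were chr6:27774315-27774337 (fold 6.21), chr7:5583893-5583915 (5.07), chr13:107911149-107911171 (4.31), chr16:14662797-14662819 in an intron of BFAR, an apoptosis regulator gene (8.48), and chr18:12552848-12552870 in an intron of SPIRE1, an actin nucleator gene (9.67). Those with 3 were chr7:135073565-135073587 in an intron of AGBL3 (5.07) and chr17:40499403-40499425 in an intron of TNS4 (8.92). These peaks were weak beside those of perfect sites, with a median fold of 6.21.

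The 26 occupied sites with 2 or 3 mismatches and a perfectly matched neighbour had a median fold of 8.26. The strongest were chr17:28894009-28894031 with C3T and C6T in an intron of FLOT2, which encodes the lipid raft protein flotillin-2 (20.1), chr10:84172020-84172042 with C6T and A20C in an exon of CERNA2 (19.6) and chr10:98133488-98133510 with G7A and G18C, 1125 bp from a start of R3HCC1L (16.6). Folds between 10 and 14 were found at chr2:190158266-190158288 in C2orf88 (13.4), chr3:138597447-138597469 near CEP70 (11.9), chr11:62326212-62326234 (11.8), chr12:9712964-9712986 in CLECL1P (10.6) and chr19:52904406-52904428 in an exon of ZNF888 (10.2). All 8 had their summit nearest to another guide than sgRNA 3.
Folds from 7 to 9.48 were found at chr6:111290178-111290200 in MFSD4B (9.48), chr7:77304687-77304709 in CCDC146 (8.56), chr1:169688040-169688062 (8.46), chrX:1172366-1172388 (8.41), chr1:206052945-206052967 (8.37), chr7:17382632-17382654 (8.16), chr2:188040588-188040610 (7.21) and chr10:84167219-84167241 in an exon of CERNA2 (7.11). The site on X had no unique word, and an identical sgRNA 3 site is listed at the same position of Y. Folds below 7 were found at sites that included chr6:74474559-74474581 (6.95), chr3:95357255-95357277 (6.87), chr3:36675183-36675205 (6.04), chr10:67159338-67159360 in CTNNA3 (5.80), chr2:41040186-41040208 (5.59), chr6:166958314-166958336 near RNASET2 (4.64), chr7:135171686-135171708 (4.35), chr15:73785495-73785517 (4.05) and chr1:206058857-206058879 in RHEX (3.57). In these 26 peaks the sgRNA 3 site was nearest to the summit at 3, the 2 sites in and beside RHEX and the site in MFSD4B.

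The PAM was AGG at 578 sites, GGG at 16 and TGG at 5. All 3 perfect sites and all 3 1-mismatch sites with GGG were occupied, too few to compare with the 70 of 77 and 63 of 96 with AGG. Windows that match sgRNA 3 as well but end in NAG, a PAM that Cas9 is known to use poorly, numbered 105 and were not counted among the sites. They overlapped a dCas9 peak at 23, including 5 of the 7 with no mismatch. Of these 7, the 4 with another sgRNA at 0 mismatches within 600 bp were all in peaks and 1 of the other 3 was.

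Compared with the other guides of the pool, sgRNA 3 had the highest share of perfect sites in peaks, though it could not be separated from sgRNA 2. Perfect sites were occupied at 42 of 82 for sgRNA 1 (51.2%), 96 of 110 for sgRNA 2 (87.3%) and 116 of 157 for sgRNA 4 (73.9%). sgRNA 3 exceeded sgRNA 1 by 40.0 points (26.7 to 51.6) and sgRNA 4 by 17.4 points (7.04 to 26), while its difference of 3.98 points from sgRNA 2 had an interval of -5.65 to 12.7. The guides share many loci, so these counts are not independent. At 1 mismatch the order was 66.7% for sgRNA 3, 37.1% for sgRNA 1, 34.8% for sgRNA 4 and 26.7% for sgRNA 2, a contrast for which no interval was computed. The 1-mismatch sites of sgRNA 3 were occupied at 58 of 74 with a perfectly matched neighbour and 8 of 25 without. The other guides were not split in this way, so the order cannot be read as tolerance of a mismatch. When a site was instead counted only with a summit within 100 bp of its centre, perfect sites of sgRNA 1 fell to 5 of 82 and those of sgRNA 3 stayed at 72 of 80. This criterion cannot compare the guides. The sgRNA 4 and sgRNA 2 sites lie 24 and 95 bp from that of sgRNA 3, so a summit at either can count for sgRNA 3. The sgRNA 1 site lies 292 bp away, and a shared peak with its summit near sgRNA 3 is lost to it.

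Few sgRNA 3 sites lay in H3K27ac peaks in any of the 4 lines. HL-60 had 7 of 599 (1.17%, 0.567 to 2.39%), Molm13 37 (6.18%, 4.51 to 8.40%), OCI-AML3 34 (5.68%, 4.09 to 7.83%) and K562 30 (5.01%, 3.53 to 7.06%). Of all NGG windows, 1.31%, 2.81%, 3.23% and 3.43% lay in the peaks of these lines in the same order. Of the sites of the other 3 sgRNAs, 0.955%, 6.12%, 6.57% and 6.24% did. The sgRNA 3 shares were thus near those of the other guides in every line, but the guides share many loci, so this comparison is not independent. In Molm13, OCI-AML3 and K562 the sgRNA 3 shares were above those of all NGG windows. The HL-60 share was below that of all NGG windows, and its list is shorter, with 20772 peaks against 35136 to 37571 in the other lines. The depth of the libraries is unknown, and its part in the differences between lines was not tested.

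The overlap of marked sites between lines is given as counts only. It was not computed for all NGG windows, so it cannot be read as a trait of these sites. In total, 64 of the 599 sites were marked in at least 1 line and 4 in all 4, a count that the 7 sites marked in HL-60 limit. Molm13 and OCI-AML3 shared 26 sites, out of 37 and 34. K562 alone marked 18 sites, 16 of which had 2 or 3 mismatches, as did 420 of all 599 sites. Sites with G12A and T13A, 356 of the 599 in all, made up 26 of the 30 marked in K562, 23 of the 37 in Molm13, 20 of the 34 in OCI-AML3 and 5 of the 7 in HL-60. Among perfect sites, 13 of 80 were marked in at least 1 line, 9 of them in Molm13 (11.2%, 6.03 to 20%), as many in OCI-AML3, 3 in K562 (3.75%, 1.28 to 10.5%) and 2 in HL-60. With a flank of 500 bp the counts were 10 in Molm13, 14 in OCI-AML3 (17.5%, 10.7 to 27.3%), 4 in K562 and 3 in HL-60.

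Of the 4 sites marked in all 4 lines, 2 were perfect. At chr1:31482904-31482926, in no annotated gene and 6015 bp from the pseudogene EEF1A1P46, the H3K27ac fold (the mean over a broad peak) was 7.25 (Molm13), 5.08 (OCI-AML3), 4.73 (HL-60) and 3.35 (K562). Its dCas9 fold was 18.2. At chr19:52924066-52924088, in an exon of ZNF888-AS1 and 607 bp from a start of ZNF888, the H3K27ac folds of these lines in the same order were 9.75, 3.82, 4.78 and 4.27, with a dCas9 fold of 16.9. Perfect sites marked in Molm13 and OCI-AML3 but not in K562 or HL-60 included chr18:74500700-74500722 in an intron of CNDP2, a dipeptidase gene, 379 bp from a start (6.99 and 5.77), and chr3:121549091-121549113, 3114 bp from POLQ, which encodes DNA polymerase theta (7.01 and 5.05). These folds are given side by side only, since the peaks were called separately in each line and differ in width.

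dCas9 occupied sgRNA 3 sites with and without H3K27ac. In K562, all 4 sites with at most 1 mismatch inside an H3K27ac peak of empty-vector cells were occupied, and 135 of the 175 outside (77.1%, 70.4 to 82.7%). The difference of 22.9 points had an interval of -26.5 to 29.6, so with 4 sites none was detectable. Of the 80 perfect sites, all 13 marked in at least 1 line and 60 of the 67 marked in none were occupied, with median folds of 15.6 (10.5 to 20) and 13.5 (5.65 to 26.3). Over all mismatch counts, 6 of the 172 occupied sites (3.49%, 1.61 to 7.40%) and 24 of the 427 others (5.62%, 3.81 to 8.23%) lay in K562 H3K27ac peaks.

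Of the 6 occupied sites inside K562 H3K27ac peaks, 3 lay in a cluster of zinc finger genes on chromosome 19. These genes encode DNA-binding proteins, many of which bind retroviral repeats. The cluster held 5 sgRNA 3 sites, all occupied. The perfect site at chr19:52735691-52735713, 629 bp from a start of ZNF611, had a dCas9 fold of 12 and was marked in K562 alone. The C6T site at chr19:52898558-52898580, 876 bp from a start of ZNF320, had a fold of 5.50 and was also marked in K562 alone, and the site near ZNF888 is described above. The other two, at chr19:52694754-52694776, 4206 bp from ZNF83 (fold 13), and the 2-mismatch site in ZNF888 (10.2), had no H3K27ac peak in K562. Outside the cluster, the 6 comprised the chromosome 1 site marked in all lines and the 2-mismatch sites on chromosomes 6 and 13 with only sgRNA 2 nearby.

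Genes start close to a minority of the occupied perfect sites. Of these 73 sites, 26 had an annotated transcript start within 5 kb, belonging to 39 genes, 12 of them protein-coding. A protein-coding start lay within 5 kb of 11 of the 73, of 3 of the 7 perfect sites outside peaks and of 75 of all 599 sites. Besides MACROD2, CNDP2, ZNF888, ZNF611, POLQ and ZNF83, the coding genes were C12orf76 (784 bp), OSBPL11 (1672 bp), MTIF2, a mitochondrial translation factor gene (2440 bp), FSBP (4318 bp), HRH1, the gene of the histamine H1 receptor (4836 bp), and ENSG00000269825 (4269 bp). Over all mismatch counts, 35 of the 599 sites lay in an exon, 232 in an intron and 332 in no gene, and 48.6%, 28.4% and 26.8% of these were occupied. These shares pool sites with different numbers of mismatches, and their differences were not tested. Exon sites had the highest share at 0, 2 and 3 mismatches. At 1 mismatch they had the lowest, with 3 of 5 occupied against 25 of 41 in introns and 38 of 53 in no gene. Genes that the study examined in connection with LTR elements lay at widely differing distances from the nearest sgRNA 3 site. The paper ties several of the far ones, among them SCIN, RPL7L1 and BIK, to LTR families other than LTR2B. It proposes that APOC1, APOC2, APOC4-APOC2 and APOE, which form a cluster, may share the same LTR element. The distances thus depend on which genes were looked up. An occupied sgRNA 3 site lay 217 bp from RHEX, an erythroid regulator gene, 2397 bp from APOL1 (fold 6.82) and 7542 bp from IL23R, a cytokine receptor gene (G12A, fold 16.8), none with H3K27ac in these lines. ZNF321P was 5320 bp from the site near ZNF888. For TPD52 the nearest site, with 3 mismatches, was 24781 bp away and outside peaks. For AHSP it was 242931 bp away. For the remaining genes looked up it was farther still, 1599817 bp for APOC1, 1591361 bp for APOE, 1627808 bp for APOC4-APOC2, 1631605 bp for APOC2, 1350154 bp for BIK, 2172454 bp for SAGE1, 3746286 bp for SCIN and 4749596 bp for RPL7L1.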

How the data were processed

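Chromatin fragments of 200 to 700 bp were immunoprecipitated, 15 µg with 2.5 µg antibody for H3K27ac and 75 µg with 5 µg for dCas9. The authors trimmed reads with Trim Galore (0.4.5 in the submitters' processing notes), aligned them to hg38 with Bowtie2 (2.3.4 in those notes), kept uniquely mapped reads and called peaks with MACS2 (2.1.1) at a q-value of 0.05, in broad mode for H3K27ac. The control library used in calling is not given in the sources used here. The deposited peak lists, 1 library per group, hold a peak score, a fold enrichment (ratio) over local background, and −log10 p-values and q-values. Some deposited broad peaks have q-values up to 0.0995. Only the fold, the q-value and the positions were used. Read depth is not in the deposited lists, so no depth is given.

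Guide sequences were taken from the study's oligonucleotide list and searched in hg38 chromosomes 1 to 22, X and Y on both strands (Python 3.11.15, NumPy 2.4.6, numba 0.67.0, pandas 2.3.3). All members, lists and comparisons were chosen with earlier results of these data known. Overlap meant at least 1 bp, and 2 dCas9 peaks on other sequences were left out. Shares have Wilson 95% intervals and differences of shares Newcombe 95% intervals (statsmodels 0.14.6), and a difference was called when its interval left out 0. No p-values were computed, since each group is 1 library. Scripts were tested on simulated data. Genes came from GENCODE release 44. Sites named are the 5 strongest perfect sites, perfect sites outside peaks, occupied sites with 2 or more mismatches or K562 H3K27ac, substitutions at 5 or more sites, and sites near the study's genes, of which a few are not reported here. Sites outside this rule were chosen after their values were seen. Alternatives were another summit or q-value rule, 1 site per locus, unique sequence, other seed lengths, neighbour distances and matches, and an H3K27ac flank of 500 bp.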

Additional observations from a re-analysis of the deposited data

How the results depend on the processing

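No paired analysis was possible because the peak lists hold 1 library per group, and for the same reason no replicate could be left out. Over 18 results, 74 alternative values were computed, 63 of them on the same side of their threshold or within the interval of the reported value. In unique sequence alone, perfect-site occupancy was 98.6% rather than 91.2%, the excess of 1-mismatch sites with another sgRNA near was 40.2 points (-6.77 to 68.6), with 3 sites left on the side without one, the difference between sgRNA 3 and sgRNA 2 was 7.35 points (0.0411 to 14.5), past the threshold, and that of perfect sites with and without a perfectly matched neighbour was -1.79 points. The contrast of mismatch position changed sign, to 7.86 points with 8 PAM-proximal positions and 36.4 points without perfectly matched neighbours, both with intervals that include 0. H3K27ac shares moved to 2.50% in HL-60, 8.18% in OCI-AML3 and 7.51% in K562 with a flank of 500 bp, and to 4.17% in Molm13 and 3.51% in K562 at a q-value below 0.001. Counting NAG as a PAM too gave 704 sites rather than 599. Perfect sites without any other sgRNA within 600 bp did not exist, so that planned difference has no value, and G12A with T13A sites with 2 mismatches could not be compared beside perfectly matched neighbours, of which they had 0. Settings without chromosome Y, by neighbour match and by G12A with T13A were chosen after seeing the data. The unknown depth limits what absence from a peak list shows.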
